A study of Mus musculus with 18 samples.

Results

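The Illumina tables of this mouse whole-brain circular RNA series held 208914 distinct circles, of which 19016 carried the class intergenic, meaning that the circle caller assigned them no host gene. Leaving out chromosome 7 from 58500000 to 63000000, the Prader-Willi interval, removed 156 of these, and the remaining 18860 circles (9.03% of all circles) are described here. A circle is identified by the 2 ends joined at its back-splice junction, where a downstream splice donor is joined to an upstream acceptor. Circular RNAs made this way have no free end, resist the exonuclease RNase R and are abundant in brain. Most known circles join exons of protein-coding genes, so circles with no host gene are a small and less described class. The tables place the circles on GRCm39, and no sequence is printed because no genome of that build was used here.

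Libraries came from brains of male C57BL/6J mice aged 3 to 4 months, in 3 genotypes. Wild type mice were compared with Adar2KO mice (Adar2-/-Gria2R/R) and with Adar1-2KO mice (Adar1E861A/E861A Ifih-/-Adar2-/-Gria2R/R). ADAR1 and ADAR2 are the enzymes that deaminate adenosine to inosine in double-stranded RNA. The Gria2 R allele encodes the edited form of a glutamate receptor subunit, so both mutant groups carry it, and Adar1E861A encodes a catalytically inactive ADAR1 that is combined here with loss of the double-stranded RNA sensor gene Ifih. Each genotype had 3 Illumina libraries. ONT (Oxford Nanopore) tables covered 8 libraries, 2 wild type and 3 of each mutant, and wild type replicate 1 was not analysed here on that platform.

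Illumina libraries held between 1516772 and 4308264 back-splice reads over 21736 to 76743 listed circles, and ONT libraries between 186594 and 673705 reads over 22347 to 47174 circles. Adar1-2KO replicate 3 stood apart, with the most back-splice reads and the fewest circles, and 55.0% of its circles came mainly from a flow cell that was the main one of no other library whose read names were given. Of 7 neuronal marker genes, all 7 hosted circles in every Illumina library and took 2.32% to 2.95% of back-splice reads. Of 6 genes of tissues outside the brain, 1 hosted any circle, at no more than 0.000129% of reads.

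The 18860 intergenic circles lay on every chromosome. Chromosome 2 held 1418 (7.52%), chromosome 5 held 1373, chromosome 1 held 1313 and chromosome 11 held 1223, whereas 452 lay on chromosome X, 438 on chromosome 19, 2 on chromosome Y and 5 on unplaced sequence. Exon circles had a similar order, with 8.43% on chromosome 2 and 2.86% on chromosome X. The plus strand carried 9443 of the intergenic circles (50.1%). Circles that overlapped or lay within 1 kb of each other were merged into 13907 loci, and 11760 loci (84.6%) held a single circle. Another 79 loci held 10 or more.

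The word intergenic did not describe most of these circles by position. CIRI2, the junction finder whose tables were deposited for 8 of the 9 libraries, listed 16464 of the 18860. It placed 12652 of them (76.8%) inside an annotated gene, with the class intron, and 3812 (23.2%) outside genes. None was of exon class. The other 2396 circles were not in a CIRI2 table, and all 2396 were listed in Adar1-2KO replicate 1 alone, the library for which no CIRI2 table was used here. Of circles inside exactly 1 gene that also hosted exon circles, 9031 (79.0%) lay on the strand of those exon circles and 2402 on the other strand. By that annotation, most circles that the quantification tables call intergenic lay inside a gene although no host was assigned.

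The genes that enclosed most of these circles by CIRI2 are large neuronal genes. Dpp10, an auxiliary subunit of Kv4 potassium channels, enclosed 98 circles with 4219 back-splice reads over the 9 libraries. Kcnip4, a calcium-binding partner of the same channels, enclosed 82. Rbfox1, a neuronal splicing factor, enclosed 75. Robo2, a receptor for Slit guidance cues, enclosed 62, Opcml, a cell adhesion molecule, 55, and Kcnd2, the pore-forming Kv4.2 subunit, 54. The ErbB ligand Nrg1 held 52, Fgf14, an intracellular modulator of sodium channels, 50, and the postsynaptic scaffold Dlg2 49. These counts did not follow those of exon circles. Dpp10 hosted 44 exon circles, Opcml 7, Fgf14 4 and Kcnd2 3, while Robo2 hosted 70 and Dlg2 62. In all, 4826 single genes enclosed at least 1 circle, and 2675 of them enclosed exactly 1.

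The loci with most circles were stretches of the same genes. The largest, chr1:124423038-124727417 in Dpp10, held 91 circles over 304380 bases. Back-splice reads over the locus were 508, 314 and 245 for wild type, 608, 375 and 473 for Adar2KO, and 410, 176 and 293 for Adar1-2KO. Scaled, the locus stood at 152 ± 11.04 CPM (back-splice reads scaled to library size; SD, n = 3) in wild type libraries, 185 ± 43.5 across Adar2KO and 90.1 ± 27.6 across Adar1-2KO. The Adar1-2KO libraries had the lowest mean, and the difference from wild type (log2 fold change -0.79, SE 0.29) did not pass edgeR's quasi-likelihood test with Benjamini-Hochberg adjustment (adjusted p = 0.525).

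The next locus, chr6:21225705-21529451 in Kcnd2, held 58 circles, and stood at 163 ± 45.0, 219 ± 47.6 and 180 ± 57.4 CPM (SD, n = 3) in wild type, Adar2KO and Adar1-2KO. The Kcnip4 locus (chr5:49177591-49390151) held 55 circles. Its reads ranged from 34 to 104 in 8 libraries and reached 558 in Adar1-2KO replicate 3. The Fgf14 locus (chr14:124514170-124810457) held 49, with 130 to 331 reads in 8 libraries and 665 in that same library. At Nrg1 (chr8:32812659-32957086), 37 circles carried 43 to 110 reads in wild type, 75 to 125 in Adar2KO and 123 to 285 in Adar1-2KO libraries. Scaled, this was 30.3 ± 4.15, 39.2 ± 8.24 and 57.8 ± 25.1 CPM (SD, n = 3). No comparison at these 4 loci passed the test, with adjusted p between 0.642 and 1.

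Intergenic circles spanned much shorter stretches of genome than exon or intron circles. Their median span was 1091 bases, with the middle of the distribution between 665 and 2649 bases and a range from 135 to 199529. The median was 11904 bases for the 154490 exon circles and 23021 for the 29728 intron circles. For the 5680 circles classed as antisense to a gene it was 2107.5 bases, so short spans were not confined to intergenic circles. Within each of the 9 libraries the median span of intergenic circles lay between 1100 and 1279 bases, below that of exon circles (12119 to 13548) and of intron circles (21710 to 25619) in 9 of 9 libraries. The mean difference between medians was -11477 ± 458 bases from exon circles and -21407 ± 1196 from intron circles (SD, n = 9). Both differences had p = 0.00391 by a two-sided exact paired permutation test over libraries, the smallest that 9 libraries can give, and adjusted p = 0.00625 over the 8 class comparisons made.

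Circles inside genes had shorter spans than those outside, and both had medians below that of exon circles. The 2396 without a CIRI2 entry had a median of 1001 bases. By CIRI2's classes, the 12652 circles inside genes had a median of 954 bases, and 37.3% of them spanned from 500 to 1000 bases. The 3812 outside genes had a median of 5976 bases, and 29.7% of them spanned from 10000 to 50000 bases against 4.01% of those inside genes. Of those outside genes 637 (16.7%) shared a start or an end with a circle of a named host gene, and of those inside genes 924 (7.30%) did. These shares describe circles pooled over libraries and were not tested.

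**Figure D1:**
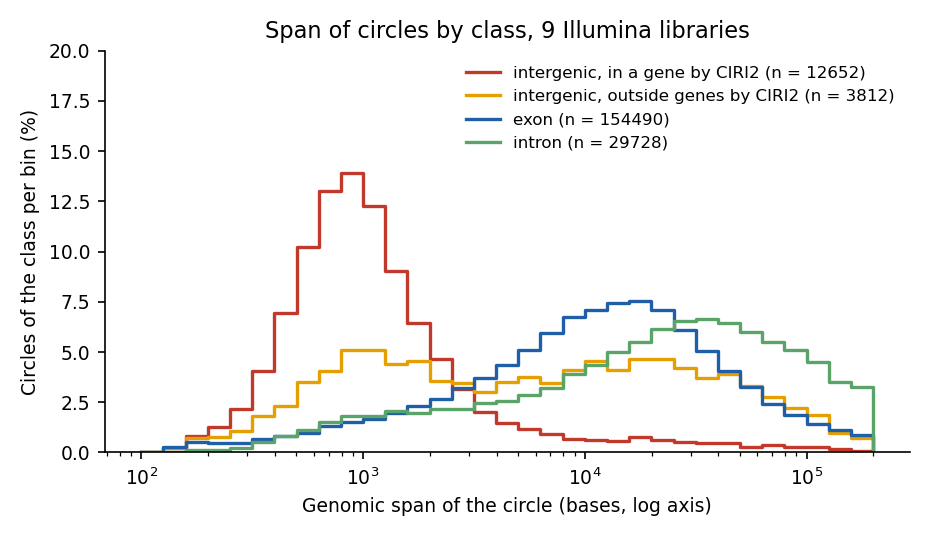
Genomic span (bases, log axis) against the percentage of each class per bin, for intergenic circles split by CIRI2's class and for exon and intron circles. Intergenic circles inside genes peak near 1000 bases (median 954), those outside genes are spread widely (median 5976), and exon circles peak above 10000 (median 11904).

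Among the intergenic circles that passed the filter on low counts (at least 5 reads in at least 3 libraries), the shortest spanned 145 bases, chr8:84298716-84298860 in Tecr, which encodes an enzyme of fatty acid elongation. Next were 171 bases at chr16:50125918-50126088 in Bbx, an HMG-box gene, and 189 bases at chr1:160864886-160865074 in Gas5, a non-coding host gene of small nucleolar RNAs. The longest spanned 145125 bases (chr6:21230999-21376123) and 137366 bases (chr6:21375848-21513213), both in Kcnd2, and 140660 bases (chr1:124446070-124586729) in Dpp10. The second of these Kcnd2 circles was also among the more abundant, with 145, 61 and 97 reads across wild type, 179, 115 and 232 across Adar2KO and 264, 249 and 143 across Adar1-2KO libraries. None of these 3 long circles was listed by ONT.

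Most intergenic circles were rare. Of the 18860, 15172 (80.4%) had 10 or fewer back-splice reads over all libraries, and 15433 (81.8%) were listed in 1 library only. The corresponding shares listed in 1 library were 49.0% for exon, 66.5% for intron and 90.1% for antisense circles. Only 85 intergenic circles were listed in all 9 libraries, and they carried 19.9% of the 296909 intergenic back-splice reads. The 417 circles with 100 or more reads carried 50.5%.

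**Figure D2:**
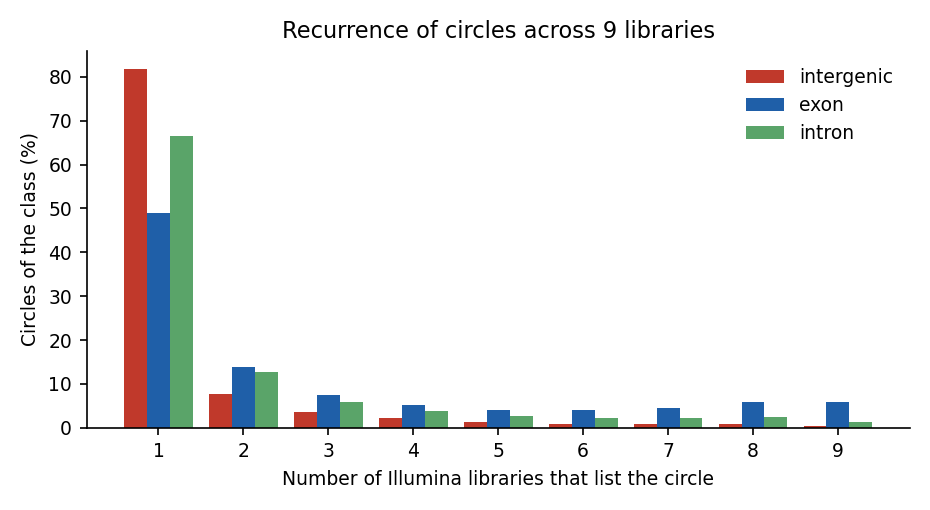
Percentage of intergenic, exon and intron circles (vertical axis) by the number of Illumina libraries that list them (horizontal axis). Intergenic circles stand at 81.8% in 1 library and 0.451% in all 9, against 49.0% and 5.79% for exon circles.

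Recurrence was low even for circles with many reads. In 384 intergenic circles at least 1 library reached 50 reads, and 314 of these (81.8%) were not listed in 1 or more other libraries. The share was 48.2% for exon and 72.4% for intron circles that reached the same number. Without Adar1-2KO replicate 3 it was 53.1% of 209 intergenic circles, 24.95% of exon and 42.0% of intron circles. In that subset of 8 libraries it was 62.4% for intergenic circles inside genes and 29.7% for those outside. These shares describe the libraries and were not tested. An unlisted circle may still have had reads. CIRI2 lists junctions from 2 reads, and it gave some circles reads in libraries where the quantification tables did not list them. In Adar2KO replicate 2, for example, it gave 5 reads to chr12:88422399-88423478, which the quantification tables did not list there.

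Intergenic circles carried fewer reads per listed circle, on average, than exon or intron circles. The mean per library ranged from 7.83 to 11.1 reads in 8 libraries and was 73.8 in Adar1-2KO replicate 3. The difference was -46.6 ± 35.7 reads from exon circles and -3.77 ± 3.27 from intron circles (SD, n = 9), and intergenic circles were lower in 9 of 9 libraries in both comparisons (two-sided exact paired permutation test, adjusted p = 0.00625 for each). The junction ratio is the deposited measure of back-splice against forward-splice reads, given here in percent. How it weights the reads was not checked, so it is not read as a plain share of reads. Its library median was 52.8% ± 15.5 for intergenic, 23.4% ± 2.89 for exon and 53.7% ± 9.64 for intron circles (SD, n = 9). The ratio was thus higher for intergenic than for exon circles, in 9 of 9 libraries (adjusted p = 0.00625). Against intron circles the difference was -0.961 percentage points with an SD of 6.12 (adjusted p = 0.688).

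The 12 intergenic circles of highest mean CPM carried 10.3% of the intergenic reads, and 9 of the 12 lay inside a gene by CIRI2. The first, chr10:73118580-73119440 in Pcdh15, a protocadherin gene, had 591, 442 and 322 reads across wild type, 546, 396 and 677 across Adar2KO and 1072, 515 and 829 across Adar1-2KO libraries. Scaled, this was 195 ± 7.21, 203 ± 28.3 and 249 ± 61.5 CPM (SD, n = 3), and the groups overlapped. The circle was listed by all 8 ONT libraries, with 57 to 173 reads.

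The second by reads, chr8:32991309-32998764 in Nrg1, had 158 to 322 reads in 8 libraries and 1725 in Adar1-2KO replicate 3. The Adar1-2KO mean of 190 CPM therefore had an SD of 198, against 99.4 ± 2.70 in wild type and 99.4 ± 15.1 in Adar2KO (n = 3). Its log2 fold change between Adar1-2KO and wild type was 0.94 with an SE of 0.56 (edgeR, adjusted p = 0.885).

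The circle chr16:57211522-57211944, inside Cmss1 and Filip1l by CIRI2, was either high or unlisted in the quantification tables. Wild type libraries had 422, 0 and 1512 reads, Adar2KO 336, 425 and 0, and Adar1-2KO 0, 502 and 0. Each genotype held a library with none, and no ONT library listed the circle. CIRI2 gave far lower counts in the same libraries, with 8, 0 and 22 for wild type, 13, 7 and 0 for Adar2KO and 14 and 0 for Adar1-2KO replicates 2 and 3, so its place among the abundant circles rests on the quantification tables.

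Of the abundant circles outside genes, chr12:5501681-5502852 had 428, 336 and 171 reads across wild type, 313, 206 and 408 across Adar2KO and 445, 268 and 528 across Adar1-2KO libraries. Its scaled level was 131 ± 21.5, 116 ± 24.0 and 126 ± 7.38 CPM (SD, n = 3), so the 3 genotypes overlapped. The circle chr16:31204877-31206823 stood at 95.9 ± 26.0, 95.9 ± 29.2 and 95.1 ± 20.5 CPM. The third, chr12:68941848-68943505, stood at 81.5 ± 10.8, 64.6 ± 14.2 and 71.0 ± 15.0 CPM and was in no ONT table. Both ends of the first were also ends of circles with a named host gene.

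Other abundant circles lay in a synaptic adhesion gene, a channel gene and a sulfotransferase gene. The circle chrX:86746374-86747049 in Il1rapl1, the synaptic adhesion gene, had 125 to 430 reads. The circle chr6:21375848-21376123 in Kcnd2 had 92 to 394 reads in 8 libraries and 18 in Adar1-2KO replicate 3. Its end 21376123 is also the end of the longest circle above and its start 21375848 the start of the second Kcnd2 circle above. The circle chr7:123628809-123629028 in Hs3st4, a heparan sulfate sulfotransferase gene, had 118 to 296 reads and was in no ONT table. The circles in Gm13483 and Dlg2 are described with the genotypes.

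**Figure D3:**
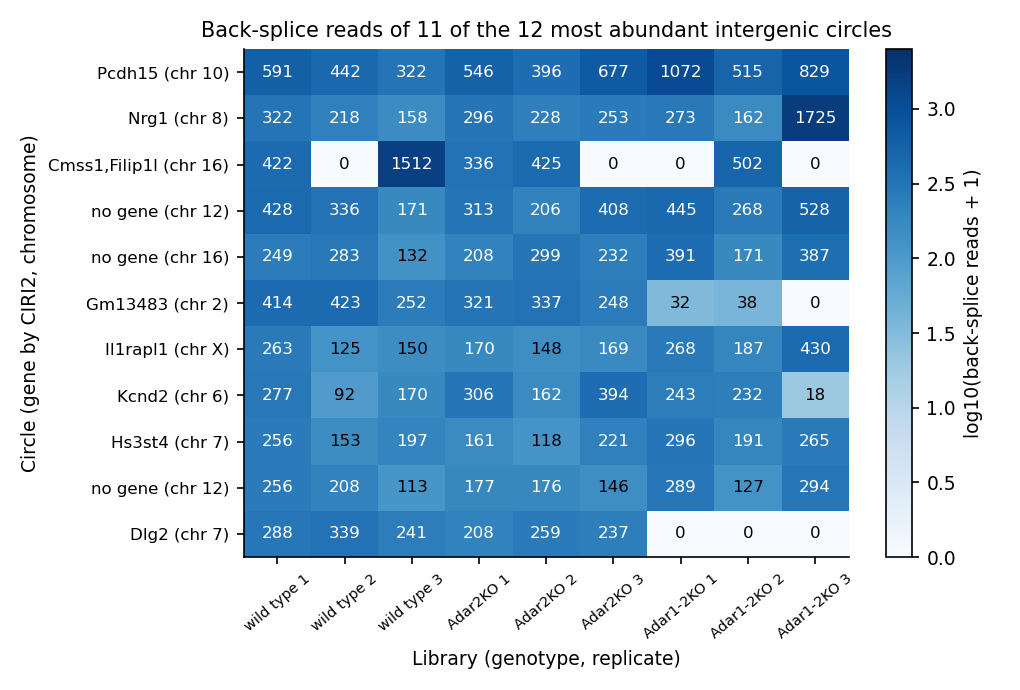
Back-splice reads of 11 of the 12 intergenic circles of highest mean CPM (rows, named by the gene CIRI2 gives) in 9 Illumina libraries (columns), with color as log10 of reads + 1. The Dlg2 circle has 208 to 339 reads in the 6 wild type and Adar2KO libraries and 0 in the 3 Adar1-2KO libraries, and the Cmss1 and Filip1l circle is at 0 in 4 libraries spread over all genotypes.

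The genotypes overlapped in the part of each library that the class took, which ran from 2.96% to 5.79% of listed circles. Intergenic circles were 5.13%, 5.02% and 4.06% of the listed circles for wild type, 5.79%, 4.84% and 5.20% for Adar2KO, and 5.64%, 4.88% and 2.96% for Adar1-2KO. The lowest share was that of Adar1-2KO replicate 3, with 643 intergenic circles (95% Wilson interval 2.74% to 3.19%), where the other 8 libraries listed 2205 to 4138. Group means were 4.74% ± 0.587, 5.28% ± 0.476 and 4.49% ± 1.38 (SD, n = 3).

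Of all back-splice reads, intergenic circles took 1.13%, 1.16% and 1.16% for wild type, 1.32%, 1.13% and 1.25% for Adar2KO, and 1.29%, 1.23% and 1.102% for Adar1-2KO. The deposited levels relative to mapped reads, CPM of mapped reads in which each back-splice read counts as 2, summed to 276 ± 59.4, 339 ± 57.3 and 378 ± 59.0 (SD, n = 3). None of the 9 comparisons of these 3 measures differed beyond the spread between libraries, with exact two-sided permutation p between 0.2 and 0.8 and adjusted p between 0.643 and 0.8. With 3 libraries against 3 such a test cannot go below 0.1.

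**Figure D4:**
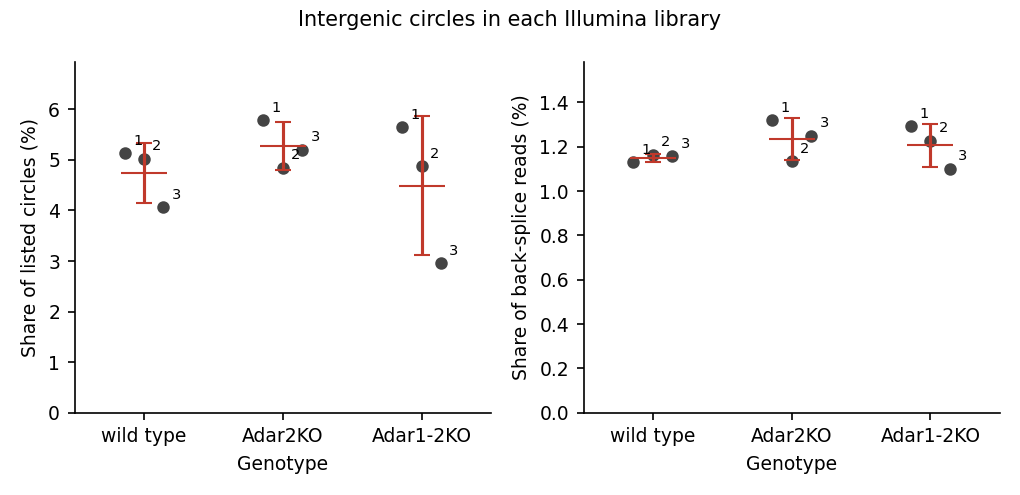
Percentage of listed circles (left) and of back-splice reads (right) that were intergenic circles, for each Illumina library by genotype. Points are libraries with their replicate number, and red bars are the mean and SD (n = 3). The read shares lie between 1.102% and 1.32%, and Adar1-2KO replicate 3 has the lowest share of circles, 2.96%.

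Single circles were tested with edgeR over all circles of the 9 libraries. The filter on low counts kept 38297 circles, of which 1026 were intergenic out of the 18860. The rest were too rare to test. Between Adar2KO and wild type no intergenic circle passed at adjusted p below 0.05, against 0.0209% of all circles tested, and 67 (6.53%) had an unadjusted p below 0.05, against 1.82% of all. Between Adar1-2KO and wild type 1 intergenic circle passed and was lower, against 0.0627% of all circles passing and 0.0392% lower. Unadjusted, 120 (11.7%) were below 0.05, against 6.74%. Between Adar1-2KO and Adar2KO the same circle passed, and was lower, against 0.0209% of all circles passing and 0.0157% lower, with 138 (13.5%) unadjusted against 6.38%. DESeq2 called 4, 8 and 8 intergenic circles in the 3 comparisons, against 0.094%, 0.488% and 0.465% of all circles. Without Adar1-2KO replicate 3, edgeR called 1, 2 and 3, against 0.0534%, 0.123% and 0.0747% of all circles.

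The median log2 fold change of the 1026 circles was 0.11, -0.37 and -0.52 in these comparisons, beside 0.04, -0.26 and -0.31 over all circles tested. Without Adar1-2KO replicate 3, the 2 medians that involve Adar1-2KO were -0.02 and -0.13, beside -0.03 and -0.06. A circle kept by the filter because it was high in 1 group had to differ between groups, so these counts and medians are descriptions.

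The circle that passed was chr7:91275537-91276021, a span of 485 bases on the plus strand, inside Dlg2 by CIRI2. Dlg2 encodes PSD-93, a scaffold of the postsynaptic density. Wild type libraries had 288, 339 and 241 back-splice reads, Adar2KO libraries 208, 259 and 237, and the 3 Adar1-2KO libraries did not list it. CIRI2 gave 233 to 649 reads in the 6 wild type and Adar2KO libraries and none in Adar1-2KO replicates 2 and 3. The groups did not overlap by either count. Scaled levels were 131 ± 34.3 CPM in wild type and 90.7 ± 18.7 in Adar2KO (SD, n = 3). The fold bounds take unlisted as no reads and set a floor of 3 reads over the 3 Adar1-2KO libraries. On these terms the level there was at least 404-fold lower than in wild type (edgeR, adjusted p = 8.42e-05) and at least 291-fold lower than in Adar2KO (adjusted p = 0.000198). For Adar1-2KO replicate 1 no CIRI2 counts were available to check that unlisted meant no reads, so the bounds depend on it. Between Adar2KO and wild type its log2 fold change was -0.53 with an SE of 0.47 (adjusted p = 1).

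Other circles of the same gene were still present. Circles with the host Dlg2 in the quantification tables summed to 388, 203 and 216 reads across wild type, 256, 303 and 478 across Adar2KO and 423, 270 and 763 across Adar1-2KO libraries, or 116 ± 23.4, 130 ± 30.3 and 143 ± 36.6 CPM (SD, n = 3). The other intergenic circles inside Dlg2 had 6 to 49 reads in total per library. One of them, chr7:91275509-91276021, shares the end of that circle and had 11 reads in wild type replicate 2 and 3 in Adar2KO replicate 1. No ONT library of any genotype listed the circle that passed, and the 2 ONT circles that overlapped it had no end within 10 bases of its ends. In the authors' deposited table for Adar1-2KO against wild type, the circle has a log2 fold change of -8.60 and an adjusted p of 1.8e-06.

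The circle stayed past the threshold when any single library was left out. In the 5 libraries of 1 flow cell (3 wild type, Adar2KO replicate 3 and Adar1-2KO replicate 2) it had 288, 339, 241, 237 and 0 reads, and the adjusted p was 0.0765 against wild type and 0.0874 against Adar2KO. That comparison rests on a single library in each mutant group, assumed to vary like the wild type libraries. Adar2KO replicates 1 and 2 came mainly from another flow cell, Adar1-2KO replicate 3 mainly from yet another, and that of Adar1-2KO replicate 1 is unknown. In the Illumina comparisons, genotype and flow cell therefore cannot be fully told apart.

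The circles with the next lowest p did not pass and are given as values. In Gm13483, a predicted gene, chr2:50222893-50224670 had 414, 423 and 252 reads across wild type, 321, 337 and 248 across Adar2KO and 32, 38 and 0 across Adar1-2KO libraries. All 3 Adar1-2KO libraries were below all others. Its log2 fold change against wild type was -4.20 with an SE of 0.998 (edgeR, adjusted p = 0.42), and without Adar1-2KO replicate 3 it was -3.59 with adjusted p = 0.0099, which passed. No ONT library listed it.

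In Egr1, an immediate early transcription factor gene, chr18:34994840-34995484 had 16, 9 and 22 reads across wild type, 21, 17 and 37 across Adar2KO and none in Adar1-2KO libraries (adjusted p = 0.468 against wild type and 0.45 against Adar2KO). CIRI2 gave 4, 4 and 7 for wild type, 11, 6 and 21 for Adar2KO and none in Adar1-2KO replicates 2 and 3. In the opposite direction, chr13:97635776-97643624, outside genes by CIRI2, had 13, 17 and 7 reads across wild type, 110, 21 and 115 across Adar2KO and 158, 75 and 293 across Adar1-2KO libraries. Its log2 fold change between Adar1-2KO and wild type was 3.22 with an SE of 0.81 (adjusted p = 0.537). CIRI2 counts of the same Illumina libraries did not show this difference, with 146, 95 and 58 reads for wild type, 114, 124 and 114 for Adar2KO, and 82 and 307 for Adar1-2KO replicates 2 and 3 (log2 fold change 0.47 between Adar1-2KO and wild type, edgeR adjusted p = 0.853). The 8 ONT libraries also gave another order, with 14 and 13 reads for wild type, 19, 26 and 21 for Adar2KO and 10, 6 and 39 for Adar1-2KO.

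Between Adar2KO and wild type, the lowest p belonged to circles that the quantification tables did not list for Adar2KO. In Rhobtb2, chr14:70025442-70026080 had 50, 44 and 63 reads across wild type, none in Adar2KO, and 75, 87 and 0 across Adar1-2KO libraries. In Stard3, a cholesterol-binding protein gene, chr11:98266555-98267295 had 52, 31 and 14 reads in wild type and none in the 6 mutant libraries. In Adck1, chr12:88422399-88423478 had 14, 56 and 28 reads in wild type, none in Adar2KO, and 8, 9 and 0 in Adar1-2KO libraries. All had an adjusted p of 1 by edgeR between Adar2KO and wild type. CIRI2, however, gave the Adck1 circle 5 reads in Adar2KO replicate 2, against 13, 14 and 8 in wild type, and gave the Stard3 circle 6, 28 and 6 in wild type and none in Adar2KO. Among the ONT reads, Adar2KO replicate 3 had 2 at the Stard3 circle, so ONT listed that circle in an Adar2KO library. Between the mutants, chr15:77657688-77658134 in Myh9, a non-muscle myosin gene, had 98, 49 and 6 reads in Adar2KO and none in Adar1-2KO libraries (adjusted p = 0.704), with 0, 4 and 0 in wild type. CIRI2 gave it 9, 23 and 3 in Adar2KO and 0, 8 and 0 in wild type.

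The authors' deposited table for Adar2KO against wild type holds 772 circles, 56 of them intergenic, and has no p above 0.05, so it is a selected list. In it, 6 intergenic circles had an adjusted p below 0.05, 3 higher and 3 lower, among 46 circles in all (5.96%). The 3 lower were the Rhobtb2, Adck1 and Stard3 circles, with log2 fold changes of -6.67, -5.96 and -5.80 in the authors' deposited table. The authors' deposited table for Adar1-2KO against wild type holds 160909 circles, 12546 of them intergenic, and 3 of those passed, 1 higher and 2 lower, against 0.0336% of all.

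On the ONT side, 1305 of the 18860 circles (6.92%) were listed with identical ends in at least 1 of the 8 libraries, and 19 were listed in all 8. All 1305 were of class intergenic there as well. By the same measure, 27.6% of exon, 7.95% of intron and 2.04% of antisense circles were listed by ONT. The reverse share was small, since ONT listed 56835 distinct intergenic circles and 2.30% of them were among the 18860. The recovered part was 1019 of 12652 (8.05%) for circles inside genes, 154 of 3812 (4.04%) for those outside and 132 of 2396 (5.51%) for those without a CIRI2 entry.

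Within a library and its ONT counterpart of the same label, recovery was 3.47% and 4.81% for wild type replicates 2 and 3, 4.57%, 5.37% and 5.60% for Adar2KO, and 7.50%, 7.43% and 23.3% for Adar1-2KO. The last value came from Adar1-2KO replicate 3, where 150 of 643 circles were recovered (95% Wilson interval 20.2% to 26.7%). Wild type replicates 2 and 3 had the fewest ONT reads (205273 and 186594) and Adar1-2KO replicate 3 the most (673705). Genotype and ONT depth cannot be told apart in these values. Recovery of exon circles was higher in 8 of 8 pairs, 30.5% ± 10.3 against 7.76% ± 6.44 (SD, n = 8; two-sided exact paired permutation test, p = 0.00781, the smallest 8 pairs can give, adjusted p = 0.0104). Intron circles were recovered at 8.67% ± 5.01, and the difference of -0.908 percentage points (SD 1.74) did not pass (exact paired permutation test, adjusted p = 0.196). Without Adar1-2KO replicate 3 that difference was -1.47 (exact p = 0.0156). With both ends allowed to differ by 10 bases, its sign turned, to 0.957 (exact p = 0.0547).

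Recovery differed widely with Illumina reads. Over the 8 pairs together, 1.87% of intergenic circles with 2 to 4 Illumina reads were recovered, 9.48% of those with 10 to 19 and 43.3% (318 of 735) of those with 50 or more. Exon circles with the same reads stood at 8.20%, 32.8% and 84.8%, and intron circles at 2.77%, 12.5% and 39.0%. Among circles with at least 5 Illumina reads, compared pair by pair, intergenic circles were recovered less than exon circles, with a difference of -31.8 percentage points (exact paired permutation test, p = 0.00781), and the difference from intron circles was -1.95 points (exact p = 0.109).

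**Figure D5:**
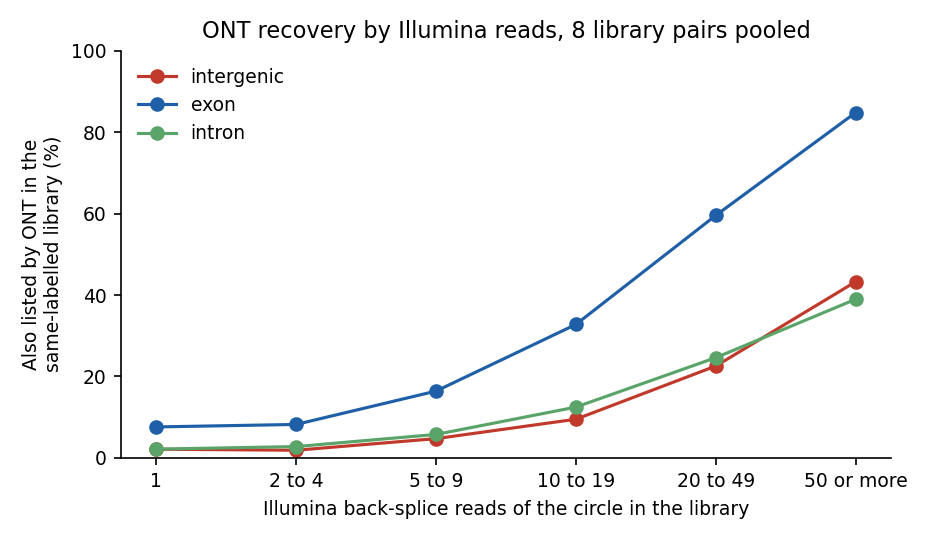
Percentage of Illumina circles also listed with identical ends by ONT in the library of the same label, against the Illumina back-splice reads of the circle, for intergenic, exon and intron circles over 8 library pairs pooled. At 50 or more reads the values are 43.3% for intergenic, 84.8% for exon and 39.0% for intron circles.

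ONT reads run through whole circles and give their inner structure. Of the 1305 recovered circles, 95.5% carried the AG-GT signal at the junction, beside 99.0% of recovered exon circles. The share was 97.1% for those inside genes and 89.6% for those outside, where 16 of 154 had no signal. Circles without a signal included chr12:5501681-5502852, chr16:31204877-31206823 and chr15:95634394-95635177, all outside genes. Among ONT intergenic circles outside the Illumina class described here, the AG-GT share was 55.2%. Recovered circles are by definition also listed by the Illumina tables, so these sets were selected differently, and the difference was not tested. The median length of the 1305 recovered circles was 737 nt, with 747 nt for those inside genes and 603.5 nt for those outside. Over all circles of the class, recovered or not, the median genomic spans were 954 bases inside genes and 5976 outside. An exon structure was given for 1262, and 1110 of them (88.0%) were 1 unbroken block. The other 152 had from 2 to 8 blocks. Circles inside genes were 1 block in 92.6% of cases (928 of 1002) and those outside genes in 44.2% (61 of 138). Recovered exon circles were 1 block in 4.92% and intron circles in 12.1%.

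Several of the named circles were read as more than 1 block. The Nrg1 circle spanned 7456 bases and was read by ONT as 3 blocks with 436 nt in all. The chromosome 13 circle spanned 7849 bases and was read as 4 blocks with 831 nt. The first Rbfox1 circle, chr16:5771283-5774727, spanned 3445 bases and was read as 3 blocks with 387 nt, and the second, chr16:5774113-5774727, has the same end and 2 blocks with 320 nt. The Pcdh15 circle of 861 bases was read as 2 blocks with 607 nt. In contrast, circles in Ppargc1a (chr5:51875563-51876622), a transcriptional coactivator gene, and Cacnb4 (chr2:52354681-52355609), a calcium channel subunit gene, were 1 block with 1059 and 928 nt.

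For 3 of the circles listed by all 8 ONT libraries, the platforms are set side by side. The circle chr1:153778859-153780249 in Glul, the glutamine synthetase gene, had 21 and 14 ONT reads for wild type, 27, 28 and 38 for Adar2KO and 27, 28 and 27 for Adar1-2KO. The quantification tables listed it once, with 3 reads for Adar2KO replicate 3, where CIRI2 gave 62 reads. The circle chr8:12300821-12302521, outside genes, had 16 to 50 ONT reads in all 8 libraries, including 16 and 20 in Adar1-2KO replicates 1 and 3, where Illumina listed none. On Illumina it had 79 to 161 reads in the other 7 libraries. The circle chr15:95634394-95635177, also outside genes, had 65 to 182 Illumina reads in 8 libraries and 750 in Adar1-2KO replicate 3, and ONT gave 77 reads in that library against 4 to 24 in the others, so both platforms were highest in the same library.

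On ONT the filter kept 83 intergenic circles of 10367, and edgeR called none in any comparison, against 0.00965%, 0% and 0.492% of all circles. At unadjusted p below 0.05 there were 2, 8 and 8, or 2.41%, 9.64% and 9.64%, against 4.28%, 7.49% and 10.6% of all. DESeq2 called 0, 1 and 2, against 0.106%, 0.453% and 1.82% of all circles. The lowest p between Adar1-2KO and both other genotypes belonged to chr3:108550597-108551738 in Wdr47, with 11 and 6 ONT reads for wild type, 4, 16 and 8 for Adar2KO and none in Adar1-2KO (adjusted p = 0.343 and 0.169). On Illumina the same circle had 61, 20 and 4 reads in Adar1-2KO and 103, 51 and 19 in wild type libraries, so the groups overlapped. In Ddx24, an RNA helicase gene, chr12:103376381-103377387 had 12, 5 and 44 ONT reads in Adar1-2KO and none in the other 5 libraries (adjusted p = 0.194 against Adar2KO), while the quantification tables gave 4 reads in wild type replicate 2 and 2 in Adar2KO replicate 3 (13 and 8 by CIRI2).

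Further ONT circles of low p that did not pass were chr14:14724790-14730314 outside genes, with 0 reads in wild type and 9, 8 and 54 in Adar1-2KO libraries, and chr4:134268247-134269647 in Selenon, with 5, 9 and 9 in Adar2KO and none in Adar1-2KO. Between Adar2KO and wild type they were chr16:74451308-74466064 in Robo2, with 8, 7 and 6 reads in Adar2KO and none in wild type, chr5:102829225-102830011 in Arhgap24, with 3, 6 and 3 against none, and chr5:19478638-19483691 in Magi2, with 7, 2 and 2 against 8 and 11. On Illumina the Robo2 circle had 17 to 22 reads in wild type and 23 to 36 in Adar2KO libraries, and its scaled levels of 8.85 ± 1.84 and 10.6 ± 1.58 CPM (SD, n = 3) differed by less than the error of the fit (log2 fold change 0.26, SE 0.87). The Arhgap24 circle had 64, 73 and 8 Illumina reads in wild type and 68, 7 and 45 in Adar2KO libraries. The Magi2 circle had 20, 13 and 0 against 21, 36 and 19. The Selenon circle had 61, 44 and 36 Illumina reads in Adar2KO and 26, 44 and 0 in Adar1-2KO libraries. The chromosome 14 circle had 21, 20 and 15 in wild type and 20, 35 and 617 in Adar1-2KO libraries.

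The nearest intergenic circles outside the Prader-Willi interval were chr7:58449998-58450606 before it and chr7:63097539-63099637 after it. Each was listed in Adar1-2KO replicate 1 only, with 7 and 15 Illumina reads, and the first was also listed by ONT in the library of that label, with 2 reads. Near Cdr1as, the brain circle with many miR-7 sites, the quantification tables give the circle chrX:60226854-60229780 as antisense to Cdr1, so it does not belong to the class described here, although CIRI2 has it outside genes. Its reads were 201 to 373 in 8 libraries, and Adar1-2KO replicate 3 did not list it. Intergenic circles close to it were sparse, such as chrX:60247302-60284091 with 10 reads in 3 libraries and chrX:60234275-60234884 with 2, 3 and 2 reads in the wild type libraries.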

How the data were processed

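CircRNA-enriched RNA (RNase R, rRNA depletion, rolling reverse transcription) from 9 brains was sequenced on Illumina. ONT libraries were separate, with 100 ng of cDNA input against 5 ng for Illumina, and 8 of them were analysed. Recovery matched the 2 platforms by genotype and replicate label only. Per the file headers, CIRIquant 1.1.2 made the Illumina tables, in which the authors deposited back-splice and forward-splice counts, the junction ratio as a fraction, and a score that is the CPM of mapped reads with each back-splice read counted as 2. In the 3 Adar1-2KO tables the values stood 1 column right of their headers and were read accordingly. The authors also deposited CIRI2 junction read counts for 8 Illumina libraries, ONT read counts with structures, and 2 tables of log2 fold changes, standard errors, mean signal, Wald score and p-values. Per the submitters' processing notes, bcl2fastq, BWA 0.7.17 and DESeq2 2.11.40.8 were used, on GRCm39. The filters behind the deposited tables are not given in the sources used here.

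Class and gene names were taken from the deposited tables, the host class from CIRIquant and the enclosing gene from CIRI2. Illumina reads are CIRIquant counts unless CIRI2 is named. The reads give 1 junction per circle, so levels were not divided by length. A minimum of 5 reads in 3 libraries decided which circles entered the edgeR 4.0.16 quasi-likelihood fits (scaled by TMM, 1 fit per platform with every library, Benjamini-Hochberg adjustment over all circles tested, threshold 0.05), in R 4.3.3. DESeq2 1.42.0 was an alternative. Shares per library and class medians were compared by exact permutation tests in Python 3.11.15 (9 tests between genotypes, 8 between classes, each family adjusted). Fits and tests were tested on simulated data. Loci joined circles overlapping or at most 1 kb apart. Wilson intervals (95%) cover counting error only, since PCR copies are not independent molecules. Labels describe biological replicates, and replicate numbers did not pair libraries.

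Circles were named by rule: the 12 of highest mean CPM; up to 5 rises and 5 falls per comparison and platform, or the 3 of lowest p where fewer than 3 passed; the 3 longest and 3 shortest tested; the 5 loci with most circles; up to 10 listed by all 8 ONT libraries; the neighbours of the interval; and the Cdr1as locus. The values of 1 of these 12 circles are not reported here. The class, the rules and the lists were chosen with earlier results of these data known. Flow cells were read from read names in the CIRI2 tables, which does not cover Adar1-2KO replicate 1.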

Additional observations from a re-analysis of the deposited data

How the results depend on the processing

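Against exon circles, span, reads per circle, junction ratio and ONT recovery kept their direction and side of the threshold under every alternative run, with leave-one-out ranges of -11541 to -11378 bases, -49.4 to -34.9 reads, 25.4 to 31.0 and -23.6 to -21.6 percentage points. Against intron circles, span and reads per circle kept theirs (-21506 to -21033 bases and -4.11 to -2.71 reads), the junction ratio passed at -4.09 points with at least 5 reads (exact permutation p = 0.043), and ONT recovery was -3.81 points over any of the 8 ONT libraries (exact p = 0.00781, the smallest 8 pairs can give), 0.957 with both ends within 10 bases, and -1.47 to -0.716 with 1 library left out, passing without Adar1-2KO replicate 3. Among the genotype shares, which passed no test, the share of circles for Adar1-2KO against wild type turned from -0.246 points to 0.326 with at least 5 reads, to 0.142 in the libraries of flow cell 1, an alternative chosen after seeing the data, and ranged from -0.82 to 0.521 with 1 library left out, turning without Adar1-2KO replicate 3. The share of reads for Adar1-2KO against Adar2KO turned from -0.0277 to 0.0531 with at least 5 reads and ranged from -0.0782 to 0.0251 with 1 library left out, turning without Adar1-2KO replicate 3 or Adar2KO replicate 1, and the summed level turned from 38.7 to -69.3 in flow cell 1. The cause was not tested. The number of intergenic circles called (0, 1 and 1 in the 3 Illumina comparisons) became 4, 8 and 8 with DESeq2, 2, 32 and 32 without a filter on low counts (1, 24 and 25 of them higher, against 0.0455%, 0.208% and 0.178% of all circles called), 0, 2 and 2 with CIRI2 counts (none higher, against 0.0112%, 0.0537% and 0.0582%), and 0, 0 and 0 in flow cell 1, where fewer libraries were used. Leaving out 1 library gave 0 to 1, 1 to 2 and 1 to 3, with the higher numbers when an Adar1-2KO replicate was the one left out. The 0, 0 and 0 calls on ONT became 0, 1 and 2 with DESeq2, and 0 to 1 for Adar1-2KO against Adar2KO with 1 library left out. The replicate numbers did not pair the libraries (correlations of deviations -0.0305 to 0.0198 between same-numbered libraries, -0.0186 to 0.0266 between others), and with the number as a replicate block 0, 1 and 1 intergenic circles were called on Illumina and 0, 0 and 0 on ONT. ONT lists circles from 2 reads, so recovery of circles with few reads is limited by depth.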
